A study of Mus musculus with 12 samples.

Results

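Of the 12 arrays hybridised with RNA from mouse neural progenitor cells, 6 stood apart from the other 6. These were the arrays of cultures overexpressing the transcription factors Pax6, Esx1, Crebzf, Pdx1, Sox11 and Zfp451, called the first set here. The second set held the control cultures, EGFP and mock, with the cultures overexpressing Hmga2, Gatad2b, Etv6 and Nfxl1. Both sets were chosen by the same expression values that are described below, so no gene was tested between them, and every difference given for a gene is a description of what the choice selected on.

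All cultures were of the 129/Ola strain, and the 10 factors and EGFP, a fluorescent protein that served as a control, were delivered as open reading frames in the retroviral vector pMXs-IRESNeo. Per the study's design, about 95% of the infected cells expressed the insert, G418, which selects for cells carrying the neomycin resistance of the vector, was given from 24 h, and the cells were collected at 72 h. The labels and files used here do not say whether the mock culture met virus or G418. Labelling of each sample started from 0.25 µg of total RNA, and each factor or control was measured on 1 array, so the arrays of a set are replicates only in the sense that they were placed together. The series speaks of interfering and non-interfering factors without saying in the labels which is which, and nothing in the labels or files used here says whether the sets match those kinds.

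The arrays lay on 3 slides of 4. Slide 1 held Pax6 with EGFP, mock and Hmga2, slide 2 held Esx1 with Gatad2b, Etv6 and Nfxl1, and slide 3 held Crebzf, Pdx1, Sox11 and Zfp451, which all belonged to the first set. For those 4 arrays, slide and set cannot be told apart. For Pax6 and Esx1, a comparison within 1 slide was available and is given beside the results. A level below is the log2 of a spot's intensity minus the log2 of the array's 75th percentile, so 0 is that percentile, and 20915 genes were measured, and 16081 of them stood well above background on each of the 12 arrays. A set is summarised by the lowest, median and highest of its 6 arrays and by its mean ± SD (n = 6 arrays).

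Neural progenitor cells divide and can give rise to neurons and glia. They are usually recognised by the intermediate filaments nestin and vimentin, by the transcription factor Sox2 and, in radial glia, by the lipid carrier Fabp7. In culture their state is shaped by growth factors and by Notch, Wnt and BMP signals, which hold back or promote differentiation.

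Some of the defining progenitor markers were present on all arrays and others were at background. Vim, which encodes vimentin, had a median level of 6.33 in the first set and 6.51 in the second. Sox2 ranged from 0.52 to 1.21 in the first set and from 0.24 to 0.79 in the second, so the sets overlapped. Nes, which encodes nestin, ranged from 1.92 to 2.35 (median 2.31) in the first set and from 3.34 to 3.61 (median 3.53) in the second. Every array of the first set was below every array of the second for Nes, with means of 2.22 ± 0.18 and 3.52 ± 0.09. Fabp7 was well above background on 5 arrays of the first set and on none of the second, and its highest level was only -5.25. Olig2, a factor of ventral progenitors and oligodendrocytes, was well above background on 2 and 1 arrays. The labelled cell type was therefore carried by Vim, Sox2 and Nes, with Fabp7 and Olig2 near or at background.

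Among markers of neurons and astrocytes, some were at background and others were not. The neuronal genes Dcx and Elavl3 and the astrocyte genes Gfap and Aqp4 were well above background on no array of the first set and on 1 array of the second. The neuronal genes Stmn2 and Syt1 and the astrocyte gene S100b were called higher in the first set, as given below. Col1a1, which encodes a chain of the main fibrillar collagen of connective tissue, had a median level of 5.60 in the first set and 3.20 in the second, without overlap. In such bulk samples, fewer cells of a type and less RNA per cell cannot be told apart.

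The overexpressed genes gave no check of the labels, because the inserts hold open reading frames alone and it was not established whether the probes lie within them. The Pax6 gene stood at -1.27 on the Pax6 array, the lowest of the 6 levels of the first set, which reached -0.84. Its levels in the second set ran from -3.47 to -2.60. Hmga2 was highest of all 12 arrays on its own array, at 5.29, while the lowest of the second set for this gene was 4.94. The probes of Esx1, Crebzf, Sox11, Zfp451, Gatad2b, Etv6 and Nfxl1 were not highest on their own arrays, and Pdx1 was well above background on none. These are the values with which the array labels must be taken.

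The distance between the sets exceeded every distance within them. Over the 16081 genes well above background throughout, the mean absolute log2 difference of the 36 pairs of arrays across the sets ran from 0.618 to 0.742, with a median of 0.671. The 15 pairs within the first set differed by 0.0872 to 0.310 (median 0.220), and the 15 within the second by 0.108 to 0.260 (median 0.195). The closest pair across the sets was thus farther apart than the most distant pair within either of them. The 6 pairs that crossed the sets on a single slide differed by 0.633 to 0.703, within the range of all pairs across.

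A principal component analysis of the same genes gave 1 direction that held 84.0% of the variance. The first set lay between 54.8 and 57.7 on it, and the second between -62.5 and -49.8. The next component held 5.70% and followed the slides, with the 4 arrays of slide 1 between 12.9 and 26.3, those of slide 2 between -22.4 and -11.1, and those of slide 3 between -4.56 and 1.98. Slide was therefore visible in the values. Slide 3 holds only arrays of the first set, so the first component can carry slide differences too. The sets were also chosen by these values, so the components do not size slide against set.

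**Figure D1:**
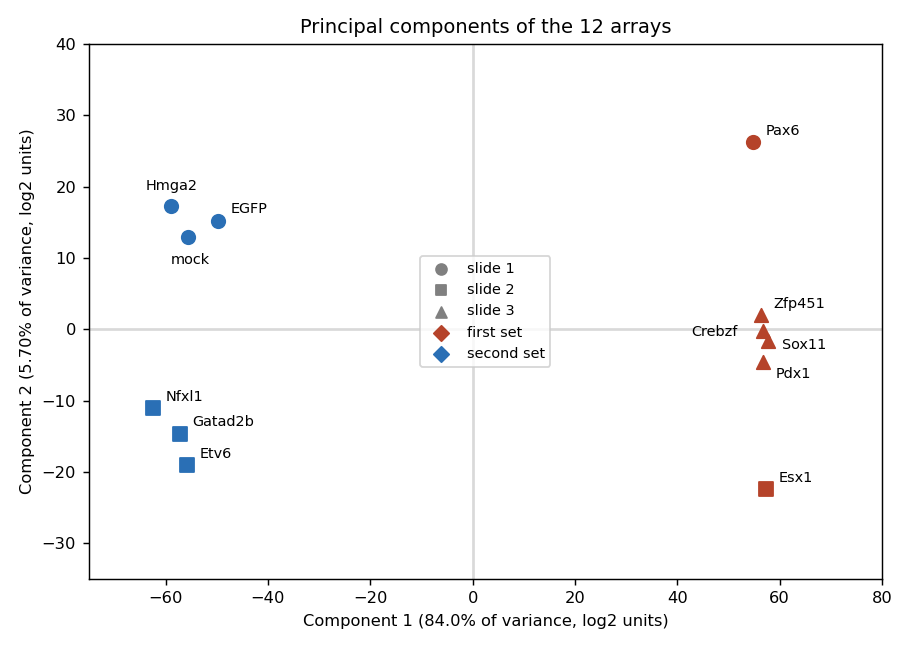
Positions of the 12 arrays on the first (horizontal) and second (vertical) principal component of their log2 levels over 16081 genes. Colour gives the set and shape the slide: the first component, with 84.0% of the variance, divides the sets, and the second, with 5.70%, follows the slides.

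Technical measures of the arrays were compared beside the sets. The 75th percentile of the signal was 997 ± 28.5 intensity units in the first set and 893 ± 46.0 in the second, with ranges of 947 to 1026 and 823 to 942 that did not overlap. It enters every level and so took part in the choice of the sets, and no test is given for it. Within slides, the Pax6 array stood at 990 against 887 to 942 for its neighbours and the Esx1 array at 1026 against 823 to 933. Each level is set relative to this percentile. Its part in the differences of single genes was not tested beyond the other scalings given below.

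Of the other measures, 2 also depend on the signals of genes and are given without a test. The bright spike-in RNAs, which were added in fixed amounts, stood 5.03 ± 0.08 log2 above the 75th percentile in the first set and 5.14 ± 0.12 in the second. The share of spots well above background was 67.5% ± 1.49 and 65.8% ± 2.46. The background, the spread of the negative controls, the slope of the spike-ins and the spread of repeated spots were compared with a two-sided exact permutation test of 6 arrays against 6, and their p-values ran from 0.553 to 0.805 after Benjamini-Hochberg adjustment over the 7 measures computed. The arrays of a set carry different factors and were sorted by their values, so these p-values describe the 12 arrays and not a condition.

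A gene was called when the levels of the sets did not overlap, the set means differed at least 2-fold and every array of the brighter set was well above background. Of the 20915 genes, 2168 were called higher in the first set, which is 10.4% of all genes measured, and 1217 were called lower, which is 5.82%, together 16.2%. Because the arrays were chosen by this contrast, nothing is read from these shares. The higher genes differed more: their median fold was 3.13 and 765 of them differed at least 4-fold, while the lower genes had a median fold of 2.46 and 121 differed at least 4-fold. At least 16-fold, there were 53 higher and 3 lower genes. Detection also differed, with 272 genes well above background on all arrays of the first set and none of the second, and 33 the other way round. Of these, 163 were called higher and 28 lower. The rest crossed the background limit without meeting the conditions for a call.

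Within a called gene, the arrays of a set lay close together. The median range of the 6 levels was 0.43 log2 in the first set and 0.42 in the second, and the median gap between the nearest arrays of the sets was 1.01. In 2619 of the 3385 called genes this gap was wider than the range of either set. A call requires sets that do not overlap and means at least 2-fold apart, so these values are in part set by the rule.

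The choice of scale shifted all genes alike and so moved the balance of the calls. The median difference of all genes, first minus second set, was -0.12, so a gene with no difference relative to the rest lies near that value. With the main scale 64.0% of the calls were higher. When the 75th percentile was taken over probes well above background on every array, 75.7% were higher, with 2612 genes higher and 838 lower and a median difference of 0.03. When the arrays were centred on the median of such genes, 57.9% were higher.

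Within slides, only the sizes of the differences carry information, since a call already places Pax6 and Esx1 beyond every array of the second set. Of the 2168 higher genes, 1920 were at least 2-fold higher on the Pax6 array than the mean of the other arrays of slide 1, 2039 on the Esx1 array than the mean of the other arrays of slide 2, and 1811 on both. Of the 1217 lower genes, 1075, 1092 and 973 met these conditions. The median difference of the higher genes was 1.62 on slide 1 and 1.72 on slide 2, and that of the lower genes was -1.33 and -1.37. The slide 3 arrays have no neighbour from the second set, and no such value exists for them. With slide as a block, an alternative added after the values were seen, 2288 genes were higher and 1328 lower under the same limits, and 2070 and 1147 of these were among the calls given above. That estimate rests on slides 1 and 2 alone.

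**Figure D2:**
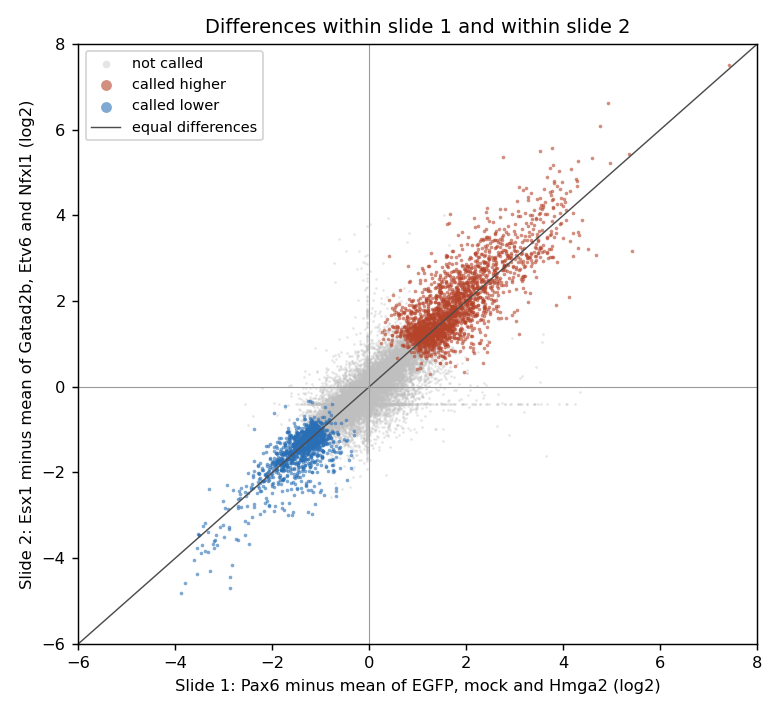
Difference of each gene on slide 1 (Pax6 minus the mean of EGFP, mock and Hmga2, horizontal axis) and on slide 2 (Esx1 minus the mean of Gatad2b, Etv6 and Nfxl1, vertical axis), both in log2, with uncalled genes in grey. Genes called higher have medians of 1.62 and 1.72, and genes called lower have medians of -1.33 and -1.37.

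Different probes for a gene mostly gave the same direction. The brightest probe stood for each gene. Of the further probes of higher genes, 767 were well above background on every array of the first set. Of these, 725 had the same sign, 617 did not overlap between the sets and 498 were also at least 2-fold apart. For the lower genes, with probes well above background on every array of the second set, the numbers were 621, 610, 549 and 405. This filter favours probes that are high in the brighter set, so the agreement is in part fixed by it.

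Among the genes higher in the first set, the largest difference was that of Postn on chromosome 3, which encodes periostin, a matrix protein of connective tissue. Its levels were 1.72, 1.99 and 2.59 (lowest, median and highest) in the first set and -5.85, -4.69 and -4.44 in the second. All 6 arrays of the first set lay far above all of the second, and the means of 2.09 ± 0.35 and -4.97 ± 0.59 gave a fold of 133. Meg3 on chromosome 12, a non-coding RNA expressed from the maternal copy, had levels of 1.35, 3.20 and 3.29 against -3.87, -3.59 and -3.11, an 86.6-fold difference of means. The low value of Meg3 in the first set was that of the Pax6 array. Rian, from the same imprinted domain, stood at a median of -1.34 in the first set and was well above background on no array of the second, at least 33.4-fold lower there.

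Islr on chromosome 9, which encodes a secreted protein with leucine-rich repeats, had levels of -1.36, -1.01 and -0.87 in the first set and was not well above background in the second. Its difference was at least 47.5-fold. Cthrc1, a secreted protein of repairing tissue, was at least 25.4-fold higher, with levels of -2.43, -1.88 and -1.70 in the first set. For both genes the lowest array of the first set was Pax6.

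Slc5a7, Tacr1, Rbfox1 and Thy1 were also among the 15 leading higher genes. Slc5a7, the choline transporter of cholinergic neurons, had levels of -0.23, 0.06 and 0.50 against -5.98, -5.21 and -4.70, a 41.2-fold difference. Tacr1, the receptor for substance P, was at least 34.0-fold higher, with a median of -1.24. Rbfox1, a neuronal splicing factor, was 29.2-fold higher, at medians of -0.47 and -5.43. Thy1, a surface protein of neurons, T cells and fibroblasts, was 33.4-fold higher, at medians of -0.75 and -6.05. For Tacr1, Rbfox1 and Thy1 the lowest array of the first set was Pax6, and it too lay above the whole second set.

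The remaining leading genes had assorted roles. Vill, a villin-like gene, was 39.8-fold higher, at medians of 0.99 and -4.36. Srpx, a sushi-repeat gene on the X chromosome, was 32.3-fold higher. Sostdc1, a secreted antagonist of BMP and Wnt signals, was 27.9-fold higher, with -0.02 on the Pax6 array and a highest level of 1.58. Capn6, a calpain-family protein of microtubules, was 27.8-fold higher, Lama2, a laminin chain of muscle and nerve basement membrane, 25.8-fold and Erg, a transcription factor of endothelium and cartilage, 25.5-fold. No array of the second set reached any array of the first for these genes.

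The sizes depended on the probe and on the background correction. With a gene's probes averaged in place of the brightest one, the log2 difference of Postn went from 7.06 to 3.57, that of Meg3 from 6.44 to 4.01, that of Islr from 5.57 to 3.52 and that of Tacr1 from 5.09 to 2.35. Those of Rian and Thy1 went from 5.06 to 3.43 and from 5.06 to 3.17. With normexp background correction and quantile normalization, all 15 leading higher genes differed less, each fold by over 1.5 times, and their log2 differences ran from 1.99 (Cthrc1) to 5.70 (Meg3). That of Postn was 5.58, that of Islr 2.77, that of Rian 2.58, that of Tacr1 2.75 and that of Erg 2.50. The folds written above as at least a value are bounds under the main background correction only. Of the 149 called genes named in all, 71 changed by over 1.5 times under this alternative, every one to a smaller difference, and the call is given below where it ended.

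Within slides, the 15 leading higher genes differed by 2.75 (Erg) to 7.43 log2 (Postn) on slide 1 and by 4.21 (Rian) to 7.52 log2 (Postn) on slide 2. The 15 leading lower genes, described after these, differed by -3.88 (Padi2) to -2.50 (Pvt1) on slide 1 and by -4.82 (Padi2) to -3.19 (Pvt1) on slide 2. Their direction on each slide was fixed by the call.

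**Figure D3:**
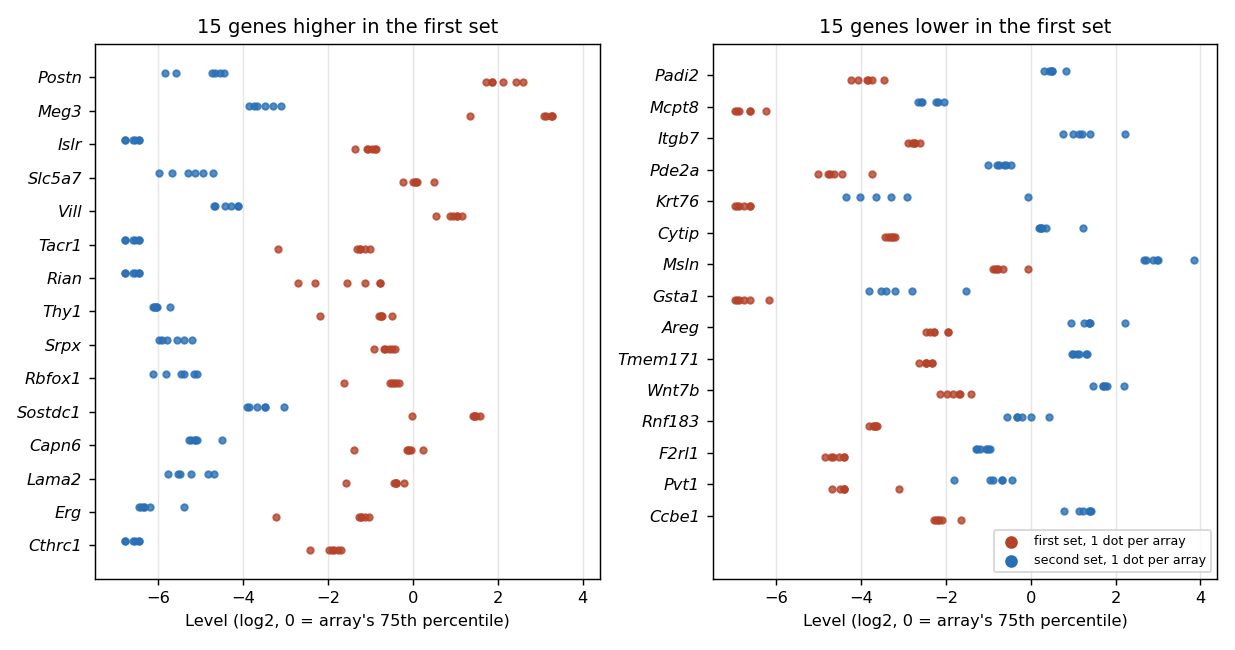
Levels (log2 relative to the array's 75th percentile, horizontal axis) of the 15 genes higher and the 15 genes lower in the first set with the largest differences, 1 point for each of the 12 arrays, coloured by set. Postn at the top runs from 1.72 to 2.59 in the first set and from -5.85 to -4.44 in the second, and for none of the 30 genes do the sets overlap.

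The largest difference downward was that of Padi2 on chromosome 4, which encodes a peptidylarginine deiminase, an enzyme that turns arginine in proteins into citrulline. Its levels were -4.24, -3.85 and -3.46 in the first set and 0.31, 0.48 and 0.83 in the second, a 20.7-fold difference of means. Padi4, the family member best known from neutrophil chromatin, had levels of -5.28, -4.25 and -3.97 against -2.43, -2.12 and -0.46. Padi3 was well above background on no array of the first set and on all 6 of the second, at least 4.39-fold lower, but its log2 difference of -2.13 became -0.75 with normexp, below the limit. So 3 of the 5 measured deiminase genes were called lower and none higher under the main setting.

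Wnt7b, Areg, F2rl1, Itgb7 and Msln were among the 15 leading lower genes. Wnt7b, a secreted Wnt ligand, had levels of -2.15, -1.76 and -1.41 against 1.46, 1.73 and 2.19, an 11.8-fold difference. Areg, a ligand of the EGF receptor, was 12.5-fold lower, with medians of -2.28 and 1.37. F2rl1, a receptor cut open by proteases, was 11.02-fold lower, at medians of -4.59 and -1.12. Itgb7, an integrin chain of lymphocyte homing, was 16.4-fold lower, at -2.75 and 1.17, and Msln, the surface protein mesothelin, was 12.9-fold lower, at -0.78 and 2.93. Each of these genes was well above background on all 12 arrays and showed no overlap.

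The rest of the 15 leading lower genes differed by 9.98-fold (Ccbe1, a secreted protein of lymphatic growth) to 20.1-fold (Mcpt8, a basophil protease, which was well above background on 1 array of the first set). Cytip, a cytohesin-binding protein, was 13.2-fold lower, and Pde2a, which breaks down cyclic nucleotides, 14.4-fold. Gsta1, a glutathione transferase, was 12.7-fold lower and was well above background on 1 array of the first set. Tmem171 was 12.04-fold, Rnf183, a ubiquitin ligase, 11.6-fold and Pvt1, a non-coding RNA next to Myc, 10.1-fold lower. Krt76, a keratin, was at least 13.4-fold lower, but its second-set levels ran from -4.35 to -0.07 with Etv6 the highest. Without the Etv6 array its log2 difference went from -3.74 to -3.14. With EGFP and mock as the only second set it was -2.61. The mean of all probes reduced the log2 difference of Pde2a to -2.72, of Cytip to -2.08, of Pvt1 to -1.90 and of Ccbe1 to -2.60. With normexp, 8 of the 15 leading lower genes changed by over 1.5 times, among them Mcpt8 to -1.91, Krt76 to -1.65 and Gsta1 to -1.55 log2.

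Gene groups were described next, each by its called members and its median difference, beside a median of -0.12 and shares of 10.4% called higher and 5.82% called lower over all genes. Shares near these are no result about a list, as for the IGF axis (13.3% higher and 6.67% lower), the Wnt ligands and receptors (14.3% higher) and the genes of G2 and mitosis (6.67% lower). No list was tested, and nothing is read from a difference between lists. Where the extreme array of a list is given, the share over all called genes was not computed. Such counts are not read as particular to a list. The Pax6 array was the lowest of the first set for 9 of 13 called fibroblast and mesenchymal genes. It was the lowest for 8 of 14 called axon guidance genes, but for 3 of 21 called interferon genes. The genes of the lists were chosen with earlier results of these data known.

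Imprinted genes are expressed from 1 parental copy and often regulate growth. Of 16 measured genes expressed from the paternal copy, 9 were called higher and 0 lower, with a median difference of 1.31. Magel2 was 21.8-fold higher, at medians of -0.70 and -5.16. Dlk1, a Notch-like inhibitor of differentiation, was 20.5-fold higher, and Peg3, a zinc finger protein, 13.3-fold. Igf2, the fetal growth factor, had levels of 1.82, 2.04 and 2.28 against -1.88, -1.55 and -1.28, a 12.04-fold difference. Ndn, which encodes necdin, was 6.40-fold higher. The Pax6 array was the lowest of the first set for 7 of these 9 genes.

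The maternally expressed group was mixed. Of 13 measured, 4 were called higher and 1 lower, with a median difference of 0.37. Meg3 and Rian were joined by Mirg, another RNA of the same domain, at least 15.4-fold higher, and by Grb10, a growth inhibitor, at least 12.5-fold higher. With the mean of its probes, the log2 difference of Grb10 was 1.74 in place of 3.65. Phlda2, a placental growth regulator, was called lower, with levels of -4.74, -3.74 and -3.56 against -3.23, -2.68 and -0.65, and its difference of -1.41 shrank to -0.77 with EGFP and mock as the only second set. H19, the neighbour of Igf2, ran from -5.27 to -4.39 in the first set and from -4.97 to -4.05 in the second, so the sets overlapped. Cdkn1c, a cell cycle inhibitor, was well above background on 5 arrays of the first set and none of the second and was not called.

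Of 21 fibroblast and mesenchymal markers, genes of connective tissue and its matrix, 12 were called higher, 1 lower and 8 not, with a median of 1.11. Lox, which cross-links collagen, had levels of -0.36, 0.16 and 0.31 against -3.88, -3.66 and -3.14, a 13.2-fold difference. Col6a3 was 9.41-fold higher, although the mean of its probes reduced the log2 difference from 3.23 to 1.40, and Col1a1 was 5.42-fold higher. Pdgfra and Pdgfrb, receptors of platelet-derived growth factors, were 3.93-fold and 2.11-fold higher. With normexp the log2 difference of Pdgfra was 0.79 in place of 1.98, below the limit. Dcn and Lum, defining fibroblast proteoglycans, were not called: Dcn ran from -2.13 to -0.91 against -4.41 to -2.07, and Lum lay near background in both sets. Twist2, a mesenchymal regulator, was the lower member, 2.92-fold. Markers of this other cell type thus lay higher in the first set in part, and their part in the other differences was not tested.

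Basement membrane genes and matrix regulators divided, with 6 higher and 1 lower of 19. Timp3, an inhibitor of matrix-cutting enzymes, was 4.68-fold higher, and Adamts5, such an enzyme, 4.49-fold. Timp1, a related inhibitor, went the other way, with levels of 4.58, 4.67 and 4.72 against 5.96, 6.09 and 6.21. Col4a1, a basement membrane collagen, was at 2.73 and 3.38 in the median and was not called. Among smooth and striated muscle markers, 4 of 12 were called higher and 1 lower. Cnn1, a smooth muscle protein, was 7.90-fold higher and Tnnt2, a troponin of heart muscle, 5.30-fold lower.

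Complement genes, whose products mark targets for the innate immune system, were called higher in 6 of 13 cases and lower in 0. C1s1 had levels of 1.64, 1.70 and 1.99 against -2.85, -2.61 and -2.11, a 19.8-fold difference. C1ra, its partner protease, was 10.6-fold higher, Serping1, the inhibitor of both, 11.3-fold and C3, the central component, 3.90-fold.

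Of 31 measured genes of the interferon response, 21 were called higher and 0 lower, and the median difference was 1.58. These genes are switched on in infected or interferon-treated cells and encode antiviral proteins. Rsad2, which encodes viperin, had levels of -3.35, -2.99 and -2.94 in the first set and reached -6.33 in the second, a 10.96-fold difference. Its log2 difference of 3.45 became 1.21 with the mean of its probes and 1.30 with normexp. Ifit3, an RNA-binding antiviral protein, had levels of 0.28, 0.52 and 1.59 against -3.18, -2.79 and -2.45, and Ifit1 of -1.62, -1.29 and -0.30 against -5.02, -4.29 and -4.06. Their folds were 10.9 and 9.35.

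The second set was not silent for this response, and some members did not differ. Isg15, a ubiquitin-like modifier, had levels of 0.63, 0.94 and 2.01 against -0.26, -0.02 and 0.22, a 2.13-fold difference. Without the Pax6 array its log2 difference of 1.09 became 0.91, and it was 0.64 on slide 2, both below the limit for a call. Ifi44 was 9.36-fold higher. Ifitm3, a membrane protein that blocks virus entry, ran from 4.50 to 4.94 in the first set and from 4.87 to 5.05 in the second. Bst2, which tethers budding viruses, ran from 3.02 to 3.94 and from 3.20 to 3.68. Ifitm3 and Bst2 were well above background on all 12 arrays.

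The Pax6 array was the highest of the first set for 16 of the 21 called interferon genes. Relative to the mean of the second set, the median of the list was 2.35 on Pax6 and between 1.27 and 1.51 on the other 5 arrays. On the arrays of the second set it lay between -0.23 and 0.23. Pax6 was the only array of the first set on slide 1, so factor and slide cannot be told apart for this difference.

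Antigen presentation genes had 9 of 15 measured called higher, 0 lower and a median of 1.23. Psmb8 and Tap1, given next, also belong to the interferon list. The same calls are thus counted in both lists, and their shared direction is in part that of the same genes. Psmb8, a subunit of the immunoproteasome, had levels of 0.65, 1.18 and 1.37 against -3.62, -3.17 and -2.76, a 19.1-fold difference. Tap1, which carries peptides to MHC class I, was 5.77-fold higher, with the Esx1 array lowest at -3.68, and with normexp its log2 difference of 2.53 became 0.97, below the limit. H2-T23, a non-classical class I gene, was 2.91-fold higher. B2m, the shared light chain, had levels of 5.14, 5.36 and 5.52 against 4.38, 4.57 and 4.68 and was not called because it differed 1.71-fold. Psmb10 did not differ beyond its spread, at medians of 4.53 and 4.50.

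The promoters of called interferon genes were read for the core of the interferon-stimulated response element, spelled GAAA, any 2 bases, GAAA, on either strand. They are shown because these genes differed together, in the same direction. In the 250 bases before the RefSeq start, 8 of the 16 called genes with a promoter in the table held the letters (50%), against 821 of 27025 promoters in all (3.04%). Of the measured genes of the list, called or not, 10 of 25 held them (40%), against 2.69% of all measured genes. Among all genes called higher the share was 4.25%, and among those called lower 2.09%. Overlapping matches in 1 promoter were counted as 1 promoter. The list's genes are known for this element, so the share describes the list and not the sets, and a match is no measured binding site.

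Stretches around the matches are given 5′ to 3′ on the strand of the gene, with the matches in capitals. Ifit1 lies at chr19:34640755-34640843 and Ifit3 at chr19:34583343-34583446, both on the plus strand, and each holds 2 matches. Rsad2 lies at chr12:26456533-26456602 on the minus strand and Gbp2, a guanylate-binding protein, at chr3:142620574-142620643 on the plus strand, with 1 match each. Isg15 lies at chr4:156200845-156200926 on the minus strand, and its 3 matches overlap in a single run.
Ifit1: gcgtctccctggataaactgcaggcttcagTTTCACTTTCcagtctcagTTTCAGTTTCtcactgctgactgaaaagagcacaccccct
Ifit3: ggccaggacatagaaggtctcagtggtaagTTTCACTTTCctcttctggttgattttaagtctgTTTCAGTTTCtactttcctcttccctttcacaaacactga
Rsad2: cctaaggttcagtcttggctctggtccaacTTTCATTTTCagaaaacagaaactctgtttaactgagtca
Gbp2: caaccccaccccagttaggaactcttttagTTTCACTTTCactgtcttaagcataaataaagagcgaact
Isg15: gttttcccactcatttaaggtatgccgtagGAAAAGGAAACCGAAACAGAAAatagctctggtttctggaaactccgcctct

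**Figure D4:**
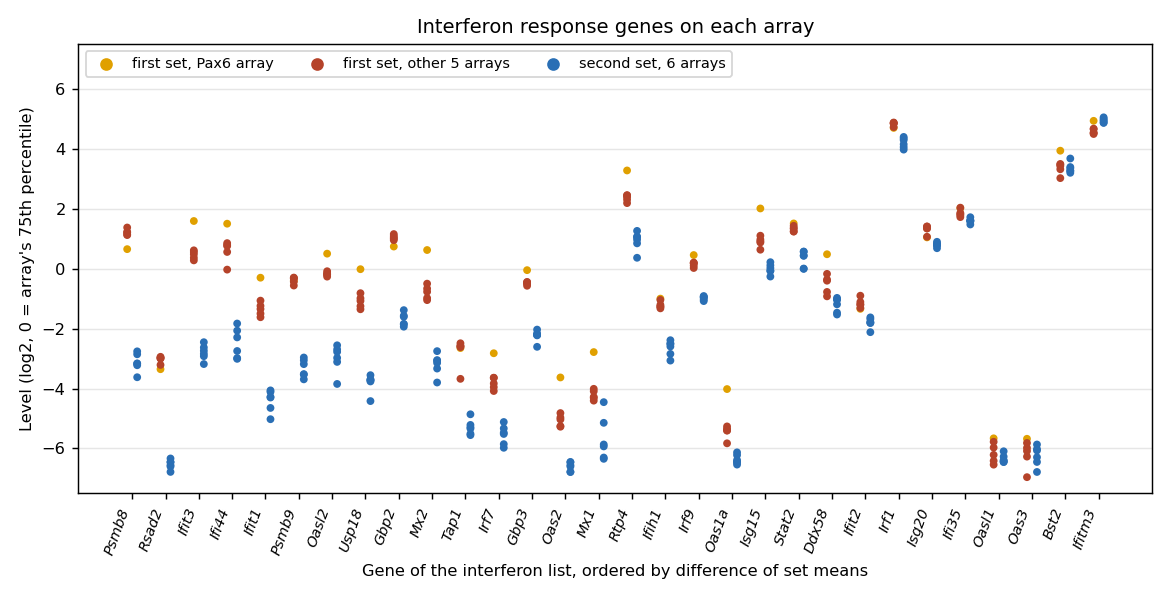
Level of 30 of the 31 measured interferon response genes (vertical axis, log2, with 0 at the array's 75th percentile), 1 point for each of the 12 arrays, the genes ordered by the difference of set means. The Pax6 array is the highest of the first set for 16 of the 21 called genes, while Ifitm3 and Bst2 overlap between the sets.

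Of 22 chemokines, cytokines and adhesion molecules, 6 were called higher and 0 lower. Il33, an alarm cytokine of barrier and glial cells, was 17.6-fold higher, at medians of -0.96 and -5.16. Icam1, an adhesion molecule for leukocytes, was 9.62-fold higher and Cxcl5, a neutrophil chemokine, 8.28-fold. For all of these the Pax6 array was the lowest of the first set, the reverse of its place among the interferon genes.

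Among the called genes of Wnt signalling, ligands lay in both directions and inhibitors in one. Of 28 ligands and receptors, 4 were called higher and 3 lower. Wnt16 was 13.3-fold and Wnt5a 7.27-fold higher, whereas Wnt7b, as given above, was lower. With normexp the log2 difference of Wnt16 was 1.45 in place of 3.74, and that of Wnt5a was 0.88 in place of 2.86, below the limit. Of 19 inhibitors and target genes, 8 were called higher and 2 lower, with a median of 0.74. Dkk1, a secreted inhibitor of the Wnt receptor, had levels of 3.08, 3.57 and 3.75 against 0.44, 0.81 and 0.98, a 6.64-fold difference. Sfrp1 and Frzb, which bind Wnt ligands, were 7.88-fold and 6.58-fold higher, and Dkk3 5.70-fold.

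The target genes of the Wnt pathway did not move as 1 group. Lgr5, a receptor for R-spondins and itself a target, was 10.8-fold higher, or 1.71 in place of 3.43 log2 with the mean of its probes. Myc, a growth-promoting transcription factor, had levels of 0.87, 1.15 and 1.38 against 3.24, 3.36 and 3.58 and was 4.75-fold lower. Tcf7, a transcription factor of the pathway, was 2.23-fold lower, with -0.89 in place of -1.16 log2 on slide 2. Ccnd1, which encodes cyclin D1, was at 3.18 and 3.72 in the median, without overlap, and differed 1.55-fold.

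BMP and TGF-beta signalling had 10 genes called higher and 2 lower of 34. The ligands Bmp2, Bmp4 and Tgfb2 were 5.42-fold, 4.003-fold and 4.84-fold higher. Id2, an inhibitor of bHLH factors that BMP signals induce, had levels of 1.24, 1.51 and 1.70 against -2.40, -1.97 and -1.70, an 11.1-fold difference, and Id3 was 3.31-fold higher. The ligand Bmp6 was 3.73-fold lower and Inhbb, an activin subunit, 4.09-fold lower, with levels of 1.91, 2.04 and 2.14 against 3.89, 4.08 and 4.22. With normexp the log2 differences of Bmp2 and Bmp6 were 0.80 in place of 2.44 and -0.96 in place of -1.90, both below the limit.

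In the Notch pathway, 4 of 22 genes were called higher and 2 lower. The receptor Notch3 had levels of 0.85, 1.34 and 1.47 against -3.22, -2.86 and -2.68, an 18.2-fold difference, and the target gene Hey1 was 8.50-fold higher. Nrarp, a target gene that dampens the pathway, was 6.40-fold lower, at medians of -3.73 and -1.02. So 2 target genes of 1 pathway lay in opposite directions.

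FGF and ERK genes divided as well, with 5 of 24 called higher and 2 lower. The receptor Fgfr2 was 16.8-fold higher, at medians of -1.71 and -5.87, or 2.21 in place of 4.07 log2 with the mean of its probes. Etv4, a transcription factor induced by FGF signals, was 2.69-fold lower. Of 15 genes of the IGF axis, 2 were called higher and 1 lower. Igf1 was 8.37-fold higher, at -2.50 and -5.70, or 2.17 in place of 3.07 log2 with the mean of its probes.

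Retinoic acid genes were higher in 8 of 16 cases and lower in 0, with a median of 1.15. Rbp4, a carrier of retinol, was 7.59-fold higher, Crabp1, which binds retinoic acid in the cytoplasm, 4.54-fold and Cyp26b1, which degrades it, 4.81-fold. With normexp the log2 difference of Cyp26b1 was 0.82 in place of 2.27, below the limit. Crabp1 had levels of 2.84, 3.51 and 3.73 against 0.93, 1.11 and 1.99. Rarb, a receptor that retinoic acid induces, was 2.93-fold higher, or 0.78 in place of 1.55 log2 with the mean of its probes, which is below the limit for a call.

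Hox genes, which give body segments their identity along the axis, had 13 of 28 called higher and 0 lower, with a median of 0.92. Those with the largest differences were posterior members. Hoxa11 had levels of 1.002, 1.87 and 2.55 against -2.29, -2.15 and -1.88, a 15.6-fold difference. Hoxb13 was 13.6-fold, Hoxa9 10.4-fold and Hoxa10 7.47-fold higher. The anterior genes Hoxa2 and Hoxa4 lay lower in the first set without overlap, with differences of -0.87 and -0.80 log2, and were not called. Among the 13 called genes the Esx1 array was the highest of the first set for 9 and the Pax6 array the lowest for 10.

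Brain patterning homeobox genes had 6 of 26 called higher and 0 lower. Otx2, a regulator of forebrain and midbrain, was at least 10.8-fold higher, at levels of -3.53, -3.12 and -3.04 with no array of the second set well above background. Among 24 neural progenitor markers, 5 were called higher and 1, Nes, lower. The Pax6 gene was 3.83-fold higher, or 1.16 in place of 1.94 log2 with the mean of its probes, Sox9, a factor of glial fate, 3.09-fold, Egfr, a growth factor receptor, 2.44-fold and Lhx2, a forebrain factor, 2.20-fold. On slide 1 the differences of Sox9 and Lhx2 were 0.93 and 0.80 log2, below the limit for a call, and that of Lhx2 was 0.74 with normexp and 0.96 with quantile normalization. Slc1a3, a glutamate transporter of radial glia, did not overlap but was below the limit, at 1.91-fold.

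Single neuronal and astrocytic genes were higher, while Dcx, Elavl3, Gfap and Aqp4 stayed at background in the first set. Of 19 neuron markers, 7 were called higher and 1 lower. Stmn2, a microtubule protein of growing axons, was 15.2-fold higher, at medians of -2.32 and -6.52, and the synaptic genes Snap25 and Syt1 were 9.03-fold and 7.06-fold higher. Nefl, a neurofilament, was 4.43-fold lower, or -0.99 in place of -2.15 log2 with normexp. With the mean of all probes the log2 differences of Snap25 and Syt1 were 2.05 and 1.95. Of 12 astrocyte markers, 5 were called higher and 0 lower, among them Sparcl1 (11.2-fold), Apoe (6.99-fold) and S100b (2.96-fold, or 0.88 in place of 1.57 log2 with normexp, below the limit).

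Axon guidance had 13 of 34 genes called higher and 1 lower. The receptor Epha3 had levels of -0.04, -0.03 and 0.54 against -3.99, -3.73 and -3.45, a 14.4-fold difference. Robo2, a receptor for Slit repellents, was at least 11.4-fold higher and Unc5c, a netrin receptor, 8.11-fold. Efnb2, an ephrin ligand, was the lower member, 2.30-fold, with -0.78 in place of -1.20 log2 on slide 2 and -0.98 with slide as a block. With the mean of its probes, Robo2 differed by 1.65 in place of 3.51 log2.

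Integrins, the receptors that hold cells to the matrix, had 7 of 19 called higher and 2 lower. Itga11, a collagen receptor, was 16.5-fold higher, at medians of 0.11 and -3.97, and Itga4, a fibronectin receptor, 9.93-fold. Itga6, a laminin receptor used to enrich progenitors, was 2.80-fold lower, at 3.20 and 4.71, and Itgb7 was lower as given above. Of 23 cadherins and protocadherins, 6 were called higher and 0 lower, with Pcdh17 at least 9.63-fold and Cdh3 9.59-fold higher. With the mean of all probes, Itga4 differed by 1.70 in place of 3.31 log2 and Pcdh17 by 2.10 in place of 3.27.

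Of 35 measured genes of the G1/S transition and of DNA replication, 12 were called lower, 0 higher and 23 not, with a median difference of -0.84. Ccne1, which encodes cyclin E1, had levels of 2.82, 2.99 and 3.09 against 4.57, 4.82 and 4.91, a 3.48-fold difference. E2f8, a transcription factor of the S phase, was 3.22-fold lower, or -1.06 in place of -1.69 log2 with the mean of its probes. Tk1 and Tyms, enzymes of thymidine supply, were 2.57-fold and 2.39-fold lower, and Mcm5, a subunit of the replicative helicase, 2.56-fold. Ccnd3, a cyclin of early G1, did not differ beyond its spread, at 3.35 and 3.30. The Pax6 array was the lowest of the first set for 11 of the 12, and it was often the lowest in other lists too.

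Of 30 measured genes of G2 and mitosis, 2 were called lower, which is 6.67% against 5.82% of all genes, and 0 higher, with a median of -0.56. Plk1, a mitotic kinase, had levels of 3.42, 3.81 and 3.88 against 4.93, 5.05 and 5.14, and Espl1, the protease that parts sister chromatids, of 0.53, 0.78 and 0.88 against 1.85, 1.87 and 1.96. Ccnb2, a mitotic cyclin, and Nusap1, a spindle protein, overlapped between the sets, with medians of 5.23 in both and of 1.85 and 1.79. The cell cycle inhibitor Cdkn1a was 2.52-fold lower and Trp53, which encodes the p53 protein, 2.23-fold lower. These calls were close to the limit. Under quantile normalization the log2 differences of Tyms, Plk1, Espl1 and Trp53 were -0.95, -0.99, -0.99 and -0.96, under normexp those of Tyms, Espl1 and Trp53 were -0.996, -0.99 and -0.95, and that of Cdkn1a was -0.97 with EGFP and mock as the only second set.

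The replication and mitosis promoters were read for 2 kinds of element. E2F sites were spelled TTTGGCGC, TTTCCCGC, TTTGGCGG or TTTCCCGG, and the cell cycle homology region TTTGAA, each on either strand. An E2F spelling was found in 3 of 9 called G1/S genes with a promoter in the table (33.3%) and in 9 of 27 measured ones, against 2.73% of all promoters. TTTGAA was found in 8 of 24 measured G2/M genes and in 1 of 2 called ones, against 16.3% of all promoters. Over all measured genes, E2F spellings were found in 4.19% and TTTGAA in 11.9%. The lists hold genes known for these elements, so the shares describe the lists and not the sets, and a match is no measured binding site. The stretches of Mcm5 (chr8:75109330-75109397, plus strand) and Espl1 (chr15:102296236-102296292, plus strand) show 1 match each in capitals.
Mcm5: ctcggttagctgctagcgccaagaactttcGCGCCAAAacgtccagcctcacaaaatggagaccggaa
Espl1: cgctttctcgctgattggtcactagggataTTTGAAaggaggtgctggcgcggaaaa

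Genes of amino acid supply and one-carbon metabolism, many of them targets of the stress factor ATF4, were called lower in 9 of 26 cases and higher in 0, with a median of -0.74. Cth, which makes cysteine, had levels of 0.29, 0.85 and 0.90 against 2.60, 2.75 and 3.01, a 4.04-fold difference. Slc7a11, the cystine importer, was 3.76-fold lower, Shmt2, which feeds serine carbon into folate, 2.91-fold and Psat1, of serine synthesis, 2.49-fold, or -0.997 in place of -1.32 log2 under quantile normalization. The Pax6 array was the lowest of the first set for all 9 called genes, and its list median relative to the second set was -1.54 against -0.66 to -0.48 on the other 5 arrays. Chac1, an ATF4 target that degrades glutathione, was low on the Pax6 array alone, at 0.78, while the median of the first set was 2.81 and that of the second 2.36.

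Antioxidant genes of the Nrf2 response were called lower in 6 of 18 cases and higher in 1, with a median of -0.55. Srxn1, which restores peroxiredoxins, had levels of 1.95, 2.30 and 2.34 against 3.88, 4.05 and 4.63, a 3.69-fold difference. Gclm, of glutathione synthesis, was 2.84-fold lower and Txnrd1, thioredoxin reductase, 2.32-fold, or -0.95 in place of -1.22 log2 with normexp and -0.89 with quantile normalization. Nqo1, a quinone reductase, did not overlap but differed 1.94-fold. Cytochrome c1, encoded by Cyc1, was the 1 called gene of 25 respiratory chain genes, 2.45-fold lower. Its log2 difference was -0.999 with normexp and -0.98 with quantile normalization, both below the limit. The transferrin receptor Tfrc was the 1 called gene of 17 housekeeping genes, 4.15-fold lower. The shares called lower in these lists, 4% and 5.88%, were near the 5.82% of all genes and are no result about them.

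Immediate early genes, which respond to stimuli within minutes, lay on both sides, 4 higher and 3 lower of 21. Fos was 9.03-fold higher, with 0.98 on the Pax6 array and -2.03 to -1.43 on the other 5 arrays of the first set, against -4.76 to -4.22 in the second. Egr1 was 3.03-fold higher. Jun, whose product pairs with that of Fos, had levels of -0.81, -0.78 and -0.62 against 1.12, 1.27 and 1.33 and was 3.97-fold lower, and Fosl1, a Fos relative, was 9.26-fold lower.

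Among 16 targets of p53, 2 were called higher (12.5%, near the 10.4% of all genes) and 3 lower (18.8%, against 5.82%). Fas, a death receptor, was 16.3-fold higher, at 1.84 and -2.30, while Aen, an exonuclease of apoptosis, was 4.05-fold lower. Of 26 genes of hypoxia and glycolysis, 5 were called higher and 0 lower, with Slc16a3, a lactate exporter, at 8.83-fold and Bnip3, a mitophagy receptor, at 4.15-fold, and Hk2, a hexokinase, was lower without overlap by 1.88-fold and not called. Of 26 genes of cholesterol and fatty acid synthesis, 3 were called higher and 0 lower, and the median of that list was -0.35. The share called higher, 11.5%, was near the 10.4% of all genes and is no result about the list. Of 32 ribosomal protein genes, 0 were called, with a median of -0.17 that turned to 0.04 under quantile normalization.

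**Figure D5:**
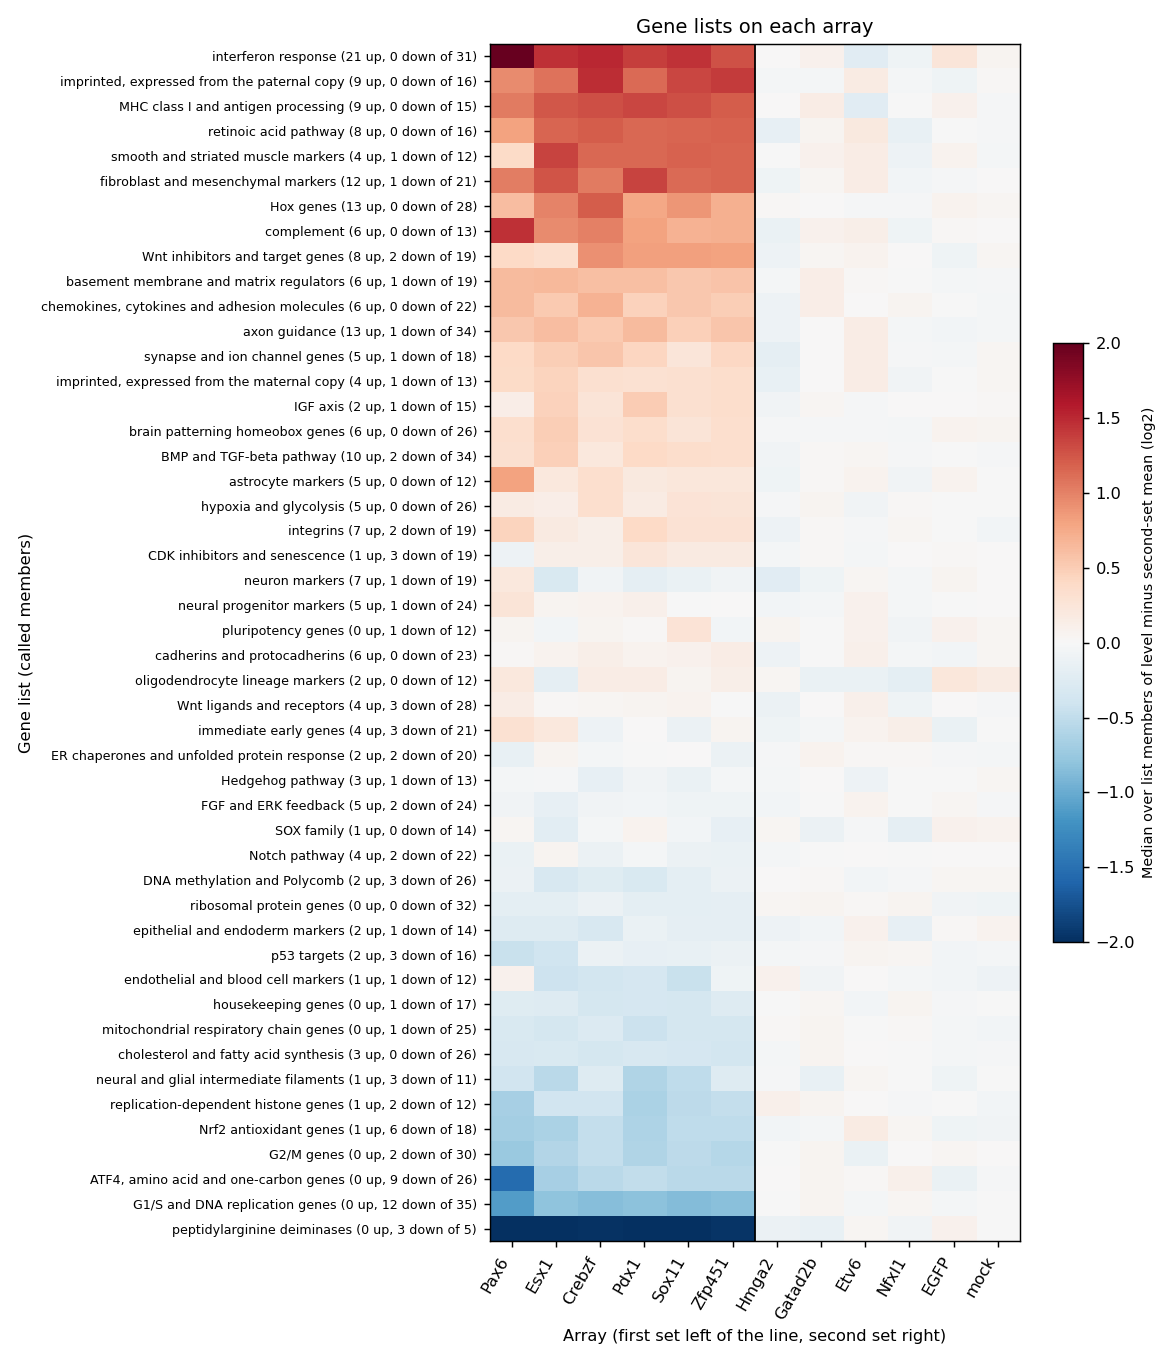
Median over the members of each gene list (vertical axis, with the number of called members) of the level minus the mean of the second set, in log2, on each of the 12 arrays (horizontal axis); red is above 0 and blue below. The scale ends at 2 on either side, so the interferon list on the Pax6 array, at 2.35, and the peptidylarginine deiminases lie at or beyond its ends.

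The 6 arrays of the first set were not alike in all genes. Over pairs, the 4 arrays of slide 3 were the closest, with mean absolute log2 differences of 0.0872 to 0.135. The Pax6 array had 149 genes at least 2-fold above and 127 at least 2-fold below all the other 5, and the Esx1 array had 68 and 184. On Crebzf, Pdx1, Sox11 and Zfp451 between 45 and 72 genes were at least 2-fold above, and at most 1 was below. Pax6 and Esx1 were also the only arrays of the set on slides 1 and 2, so factor and slide cannot be told apart for these counts.

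Among the genes that varied most within the first set, chosen after their values were seen, were Fos, given above, and the following. Calb1, a calcium-binding protein of neurons, stood at -6.30 on Pax6 and between -3.98 and -3.44 on the other 5 arrays. Cyp2d12, a cytochrome P450, stood at -2.75 on Pdx1 and at most at -5.19 elsewhere in the set. Chrdl1, a BMP antagonist, stood at -1.996 on Crebzf and at most at -4.18 elsewhere in the set. Each of these values comes from 1 array.

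By chromosome, leaving out Y, the median difference of genes ran from -0.26 on chromosome 16 to 0.05 on chromosome 9. Chromosome Y had only 8 measured genes, with a median of 0.29, of which 2 were called higher (25%) and 0 lower. Chromosome X had 16.8% of 548 genes called higher and 2.55% lower, and chromosome 9 had 14.8% of 913 higher and 2.74% lower. Chromosome 16 had 8.98% higher and 11.9% lower, and chromosome 8 had 7.90% and 9.23%. Xist, the RNA that silences an X chromosome, was well above background on 1 array of the first set and 2 of the second. The Y-linked genes Ddx3y and Eif2s3y were well above background on all 12, with medians of 0.31 against -0.19 and of 1.06 against 0.67. Both sets thus carried Y-linked transcripts.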

How the data were processed

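Total RNA of 12 cultures was labelled with Cy3 and hybridised to 1-colour Agilent arrays. Per the file headers, the deposited files were written by version 10.7.3.1 of Agilent Feature Extraction. The intensity used, per the same headers, is the background-subtracted, processed signal on a linear scale. The authors' deposited value table equals that column on every spot of the 12 arrays, within a relative tolerance of 1e-06. The sources used here name no normalisation after image analysis. The positions that the files list for probes are on mm7 and were not used.

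Control and outlier spots were left out and repeated spots averaged, which gave 41174 probes, of which 171 lacked a value on at least 1 array. Per the deposited intensities, levels are log2 of the signal minus the log2 75th percentile of the array, computed here, with a floor at the array's lowest signal well above background. Probes were named by RefSeq accession (22951), symbol (6659), synonym (3109) or as the file names them (8455), and the brightest probe stood for a gene. A fold is 2 to the power of the difference of set means, and is written as at least a value where the dimmer set was well above background on no array. No gene was tested, since the sets were chosen by these values. The call rule was tested on simulated data. Technical measures that do not depend on the signals of genes were compared with two-sided exact permutation tests. The 75th percentile, the spike-ins relative to it and the share of spots well above background were planned for the same test and are given as values.

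The arrays of the sets, the gene lists and the rule for naming genes were chosen with earlier results of these data known. Named genes are the 5 genes given with the sets, the 15 genes of largest difference among those called higher and the 15 among those called lower (leaving out clones, predicted genes, olfactory and vomeronasal receptors and genes with an opposing probe), up to 5 called members in each direction and 3 uncalled members of a list, the overexpressed factors and the sex-chromosome genes, and 3 genes are not reported here. Alternatives covered background correction (normexp, offset 50, limma 3.58.1 in R 4.3.3), normalisation, floor, filter, probe choice, slides, left-out arrays and limits. Promoters are RefSeq sequences of GRCm38.p6, with 12729 measured genes matched. Python 3.11.15, pandas 2.3.3 and SciPy 1.17.1 were used.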

Additional observations from a re-analysis of the deposited data

Results flagged for a closer look

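In each set, an array was taken as standing apart for a gene when its gap to the nearest of the other 5 arrays was a share of the whole range over Dixon's 95% critical value for 6 samples. Of 342 groups of 6 levels and technical measures examined, 80 held such an array, which is 23.4%, where chance gives about 1 in 20. The genes were chosen for their difference between the sets and share arrays, so these are not independent. Of the 80, 58 were on the Pax6 array, the only array of the first set on slide 1, where factor and slide cannot be told apart. Levels below are in log2, with 0 at the array's 75th percentile.

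The Pax6 array was high in the first set for 9 genes. These were Msln at -0.07, Pvt1 at -3.09, Ccbe1 at -1.64, Sparcl1 at 2.0003, Ifit3 at 1.59, Isg15 at 2.01, Hoxa4 at -1.51, Fos at 0.98 and Tnnt2 at 2.09. It was low for 49 genes. Among the leading genes these were Meg3 at 1.35, Tacr1 at -3.19, Thy1 at -2.20, Rbfox1 at -1.62, Sostdc1 at -0.0212, Capn6 at -1.38, Lama2 at -1.57, Erg at -3.23 and Cthrc1 at -2.43. Among imprinted, matrix and muscle genes they were Mirg at -3.85, Dlk1 at -2.72, Ndn at 0.83, Phlda2 at -4.74, Lox at -0.36 and Cnn1 at -0.26. Among immune genes they were Psmb8 at 0.65, Il33 at -1.91, Icam1 at -0.79 and Cxcl5 at -4.11.

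Among neural genes the Pax6 array was low for Otx2 at -3.53, Lhx2 at -1.98, Stmn2 at -3.91, Snap25 at -2.85, Apoe at 2.78, Calb1 at -6.30, Robo2 at -3.84, Unc5c at -1.73, Pcdh17 at -4.09 and Cdh3 at -3.74. Among signalling and patterning genes it was low for Lgr5 at -3.82, Ccnd1 at 2.72, Notch3 at 0.85, Hey1 at -0.70, Fgfr2 at -2.85, Igf1 at -3.19, Rbp4 at -2.87, Hoxa10 at 0.95 and Esx1 at -1.97. Among cell cycle and metabolic genes it was low for E2f8 at -3.11, Ccnb2 at 5.01, Cdkn1a at -1.74, Cth at 0.29, Shmt2 at 1.57, Psat1 at 3.17, Chac1 at 0.78, Srxn1 at 1.95, Tfrc at -0.50, Hk2 at 1.93 and Padi4 at -5.28.

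On the other arrays of the first set, Crebzf was high for Chrdl1 at -1.996 and low for Col4a1 at 2.68, Esx1 was low for Tap1 at -3.68 and Pdx1 was high for Cyp2d12 at -2.75. In the second set the Etv6 array was high for 13 genes, all but Ndn, Capn6, Pdgfra and Crabp1 being genes lower in the first set. These were Capn6 at -4.50, Padi2 at 0.83, Krt76 at -0.0671, Cytip at 1.24, Msln at 3.86, Areg at 2.23, Pdgfra at -4.18, Twist2 at 1.21, Ndn at -0.80, Phlda2 at -0.65, Crabp1 at 1.99, Nqo1 at 3.48 and Padi4 at -0.46. EGFP was high for Padi3 at -3.30 and low for Nes at 3.34 and Ccne1 at 4.57, Gatad2b was high for Ccnd1 at 3.85 and mock was high for Thy1 at -5.71.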

How the results depend on the processing

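The sets rest on 1 array for each factor, were chosen by the values described, and share their division with slide 3, so the results describe these 12 arrays only. Genes near background are limited by the signal, since a floor was set at the lowest signal well above background, and the number of arrays limits the precision. Arrays could not be paired by replicate, because the labels give no replicate numbers and each factor has 1 array. Slide as a block, added after the values were seen, gave 2288 higher and 1328 lower genes. In all, 27 alternatives were run. The 2168 higher and 1217 lower genes became 1237 and 729 with normexp background correction and quantile normalization, 1156 and 320 with a 3-fold limit, and 1161 and 570 with a 2-fold gap between the nearest arrays, the last 2 being stricter by construction. Leaving out each array in turn gave 2135 to 2227 higher and 1214 to 1251 lower genes. The other alternatives gave between 1711 and 2612 higher and between 838 and 1489 lower genes. The split of 64.0% higher among the calls became 75.7% with the 75th percentile over probes well above background on all arrays. With the 3-fold limit it became 78.3%.

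Among the technical measures, the difference of the 75th percentile of the signal, 105 units over all arrays, was 155 units on slide 2 alone. The share of spots well above background differed by 5.21 percentage points on slide 2, the slope of the spike-ins by -0.030 on slide 1, and the spread of repeated spots by -0.97 percentage points on slide 2. The cause of these shifts was not tested.

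Of the 149 called genes named, none changed direction in 3699 values under alternatives, and the fold changed by over 1.5 times in 193 of these values. All 71 such genes under normexp and all 29 under the mean of all probes differed less than before, and the 18 without the floor differed more. These directions are in part set by the processing. An offset of 50 added to each signal shrinks the log2 differences of dim genes, and taking away the floor can only widen them. Most genes were named by the difference of their brightest probe. On slide 1 alone 45 changed so, 39 of them to a smaller difference, on slide 2 alone 13, without the slide 3 arrays or with slide as a block 7, and with EGFP and mock as the only second set 2. Below the 2-fold limit were 19 genes under normexp (Lhx2, Nefl, S100b, Pdgfra, Tap1, Wnt5a, Bmp2, Bmp6, Cyp26b1, Tyms, Espl1, Trp53, Txnrd1, Cyc1, Padi3, Hmga2, Calb1, Cyp2d12 and Chrdl1) and 9 under quantile normalization (Lhx2, Tyms, Plk1, Espl1, Trp53, Psat1, Txnrd1, Cyc1 and Hmga2). Below it too were 4 with the mean of all probes (Rarb, Tyms, Trp53 and Hmga2). Without the Pax6 array Isg15 was below it, and without the Pdx1 array Cyp2d12 was. Medians of the 51 lists changed sign in 65 of 1275 values, in lists whose median was at most 0.37 in size.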
